A study of Mus musculus with 20 samples.

Results

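Transcripts of the major urinary protein genes were measured in liver RNA of mice made obese by diet. The genes described are the 9 rows of the deposited tables that carry the symbols Mup1, Mup2, Mup3, Mup7, Mup9, Mup11, Mup17, Mup20 and Mup21. They are 9 of 49 rows named Mup and 9 of 34933 named genes. Reads of near-identical copies can be assigned to one copy or another, so the sum of the 9 rows is given beside each gene. That sum leaves out reads assigned to the remaining Mup rows. The mice received the statin rosuvastatin together with geranylgeraniol (GGOH), rosuvastatin alone, GGOH alone, or vehicle. Each group held 5 livers, numbered 1 to 5 and taken as 1 mouse each, all labelled wild type (WT) and all obese from diet, so no lean or untreated animals enter the comparisons. The labels give no strain, sex, age, dose, duration or time of sampling. The 4 groups compare rosuvastatin with and without GGOH, an isoprenoid alcohol that cells can use to make geranylgeranyl groups, whose supply statins reduce by inhibiting HMG-CoA reductase.

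Major urinary proteins are small lipocalins, barrel-shaped carriers of hydrophobic molecules. In mice the liver secretes them into blood, the kidney passes them into urine, and there they bind volatile pheromones and act as pheromones themselves. Hepatic Mup transcription is higher in males than in females. It depends on the pulsatile male pattern of growth hormone, which acts through the growth hormone receptor and STAT5. The genes lie in a tandem array on mouse chromosome 4, where a block of near-identical central copies is flanked by more divergent ones. Mup20 encodes darcin, a male urinary protein that attracts females.

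The coding sequences show which rows can be read singly. Mup1, Mup2, Mup7, Mup9, Mup11 and Mup17 were between 98.3 and 99.6% identical to one another. Mup3 and Mup21 were 94.7% identical to each other and between 83.3 and 85.8% identical to the 6 central genes. Mup20 stood between, 90.1 to 91.3% identical to the 6 central genes, 88.2% to Mup21 and 87.3% to Mup3. A stretch of 60 coding bases from GENCODE M21 transcripts is printed for each gene. It starts at coding base 212 in Mup1, Mup2, Mup7, Mup9 and Mup17, at 215 in Mup11, Mup20 and Mup21, and at 224 in Mup3. Capitals mark bases that differ from the commonest base of the 9 genes at that position.
Mup9: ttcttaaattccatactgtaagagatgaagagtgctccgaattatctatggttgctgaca
Mup1: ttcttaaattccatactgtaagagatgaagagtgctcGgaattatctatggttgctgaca
Mup2: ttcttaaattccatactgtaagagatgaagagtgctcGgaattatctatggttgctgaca
Mup11: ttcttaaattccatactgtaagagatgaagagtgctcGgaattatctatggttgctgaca
Mup7: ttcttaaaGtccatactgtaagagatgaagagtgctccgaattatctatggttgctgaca
Mup17: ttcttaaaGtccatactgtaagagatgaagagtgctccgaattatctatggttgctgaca
Mup20: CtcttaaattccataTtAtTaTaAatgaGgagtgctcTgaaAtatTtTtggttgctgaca
Mup3: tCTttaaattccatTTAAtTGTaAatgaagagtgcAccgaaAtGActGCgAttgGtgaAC
Mup21: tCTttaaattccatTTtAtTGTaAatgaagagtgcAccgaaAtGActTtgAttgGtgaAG
Mup1, Mup2 and Mup11 had the same 60 bases, as did Mup7 and Mup17, and Mup9 differed from these by a single base each. Mup20 differed from the commonest base at 11 of the 60 positions, Mup21 at 18 and Mup3 at 20. Over the whole alignment of 552 columns, 127 were variable. The share of a gene's 31-base words that no other gene's transcripts held was 69.9% for Mup3, 66.2% for Mup21 and 35.5% for Mup20. It was 29.8% for Mup1, 21.3% for Mup2, 16.7% for Mup11, 14.4% for Mup9, 13.8% for Mup17 and 9.98% for Mup7. Mup20 shared 51.2% of its words with the pseudogene Mup-ps19. Values of the 6 central genes are therefore uncertain as to the copy, while those of Mup3 and Mup21 rest mostly on their own sequence. Mup1, Mup2 and Mup11 shared most words with Mup14, and Mup9 with Mup10, both outside the 9. Mup7 shared most with Mup1 and Mup17 with Mup11. The 9-gene sum, also used for the correlations, therefore does not remove the uncertainty.

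In GRCm38 with the GENCODE M21 annotation all 9 genes lay on the minus strand of chromosome 4. The central genes were Mup7 at chr4:60066469-60070475, Mup2 at chr4:60135932-60154289, Mup9 at chr4:60418046-60421952, Mup1 at chr4:60498012-60501960, Mup11 at chr4:60658466-60662411 and Mup17 at chr4:61591929-61595871. The divergent genes lay together at the far end of the array, with Mup20 at chr4:62050234-62054158, Mup3 at chr4:62083476-62087342 and Mup21 at chr4:62147932-62150863. RefSeq gave a start site on GRCm38.p6 for 7 of the 9 genes. The 250 bases before the start of Mup9 and Mup7 are printed because both genes varied widely between mice, and together. Capitals mark TATATAA in Mup9 and CCAAT, read on the other strand as ATTGG, in Mup7.
Mup9 (chr4:60421953-60422202, minus strand): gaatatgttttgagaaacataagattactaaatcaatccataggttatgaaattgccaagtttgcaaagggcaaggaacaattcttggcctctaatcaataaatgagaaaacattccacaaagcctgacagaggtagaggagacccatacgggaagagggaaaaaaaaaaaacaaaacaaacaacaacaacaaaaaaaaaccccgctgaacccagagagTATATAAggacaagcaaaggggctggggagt
Mup7 (chr4:60070476-60070725, minus strand): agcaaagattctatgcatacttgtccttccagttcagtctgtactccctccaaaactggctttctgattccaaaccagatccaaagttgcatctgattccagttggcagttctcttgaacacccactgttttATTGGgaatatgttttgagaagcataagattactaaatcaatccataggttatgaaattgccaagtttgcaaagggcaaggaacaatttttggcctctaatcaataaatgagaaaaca
The 2 windows shared an exact stretch of 66 bases, which lay 233 to 168 bases before the Mup9 start and 96 to 31 bases before the Mup7 start. Mup9 and Mup11 shared 169 bases in a row. TATATAA was found in 5 of the 7 windows, beginning 31 bases before the start in Mup9, 27 in Mup2, 25 in Mup17, 11 in Mup3 and 8 in Mup21, and in 3.26% of 27025 promoter windows of the same length. This motif was chosen after the windows had been seen. The windows of Mup7 and Mup11, which lack it, end further upstream than that of Mup9. The stretch shared with Mup9 ends 168 bases before the Mup9 start but 31 before the Mup7 start. For Mup11 the shared stretch ends 82 bases before the Mup9 start and 51 before the Mup11 start. The place of the motif in Mup9 thus lies at or beyond the end of both windows. Whether Mup7 and Mup11 carry it there was not tested. TATAAA occurred in 0 of the 7 windows and in 13.0% of all. TTCNNNGAA, the palindrome bound by STAT5, occurred in 0 of the 7 windows and in 7.18% of all. CCAAT occurred in Mup7, Mup11 and Mup17 and in 34.5% of all. The Mup9 window opens with the bases that follow CCAAT in Mup7, so the bases at that place in Mup9 were not searched. Both strands were searched, and no motif overlapped another.

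The libraries held between 8548120 and 18373913 estimated counts (median 15697884). Mitochondrial transcripts took 27.9 and 29.2% of counts in rosuvastatin+GGOH mice 2 and 3, whereas the remaining libraries had 17.1% or less. The part of this share in the differences was not tested. Differences that include the combination are also given without these 2 libraries, a setting chosen after the data were seen, and without them and vehicle mouse 1. Defining hepatocyte markers were abundant in every library, with albumin (Alb) between 14661 and 45244 TPM. The Y-linked transcript Eif2s3y was present at 27.0 to 39.7 TPM and Ddx3y at 7.72 to 22.2 TPM across the 20 mice. The factor by which TMM scaled the libraries ran between 0.761 in vehicle mouse 5 and 1.25 in vehicle mouse 1. It was lower in libraries with a higher share of the 9 Mup genes (r = -0.821 over 20 mice, a description). TPM values carry no such factor, so fitted differences and TPM differ in size.

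Mup transcripts took a share of the liver's messenger RNA that differed widely between mice. The 9 genes held 4.68, 2.36, 1.22, 3.49 and 1.57% of counts in rosuvastatin+GGOH mice, 2.80, 5.92, 3.20, 4.24 and 1.08 in rosuvastatin mice, 5.01, 1.98, 2.79, 2.92 and 6.56 in GGOH mice and 1.35, 5.78, 2.22, 5.98 and 8.63 in vehicle mice. The lowest share was in rosuvastatin mouse 5 and the highest in vehicle mouse 5, and all 4 groups overlapped. The share in rosuvastatin mouse 5 was 1.08% (exact Clopper-Pearson 95% interval 1.08 to 1.09%), and that in vehicle mouse 5 was 8.63% (8.62 to 8.65%). These intervals cover counting error only. The group means were 2.66 ± 1.43% of counts in rosuvastatin+GGOH mice, 3.45 ± 1.79 in rosuvastatin mice, 3.85 ± 1.88 in GGOH mice and 4.79 ± 2.98 in vehicle mice (SD, n = 5 each). All 49 Mup rows together took 8.22 ± 3.71% of counts in rosuvastatin+GGOH mice, 9.57 ± 4.43 in rosuvastatin mice, 10.3 ± 3.75 in GGOH mice and 12.5 ± 6.71 in vehicle mice, with a range of 2.77 to 19.9% over the 20 mice. The 9 genes made up 27.3 to 45.1% of these Mup counts. The most abundant row outside the 9 was Mup22, with 30.1 to 51.5% of the summed Mup TPM, but none of its 31-base words was its own. In bulk tissue, fewer cells of a type and less RNA per cell cannot be told apart.

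**Figure D1:**
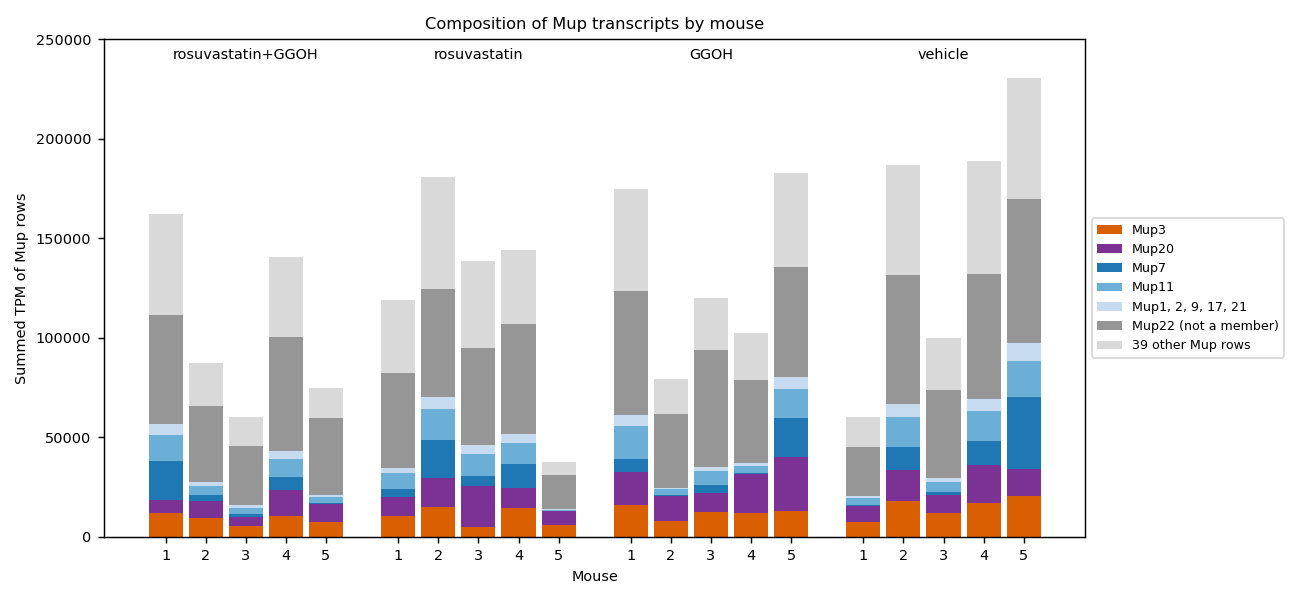
Summed TPM of Mup rows (vertical axis, TPM) in each of the 20 mice (bars, grouped by treatment), split into the members and the remaining Mup rows (grey). The total was lowest in rosuvastatin mouse 5 and highest in vehicle mouse 5, and the Mup7 segment ran between 69.9 TPM and 36094 TPM in the same 2 mice.

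Per transcript length, Mup3, Mup20, Mup11 and Mup7 were the abundant members, with medians over the 20 mice of 11871, 11462, 8639 and 4601 TPM. Mup17 followed with 1756 TPM, Mup9 with 712 and Mup1 with 377. Mup21 (210.2 TPM) and Mup2 (145 TPM) were the lowest. Neighbours in this order overlapped across mice. All 9 genes were detected in all 20 mice and passed the filter on low counts.

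Mup3, one of the divergent genes with mostly unshared sequence, stood at 11944, 9476, 5253, 10510 and 7395 TPM in rosuvastatin+GGOH mice, 10120, 14669, 4598, 14244 and 5561 in rosuvastatin mice, 15688, 7766, 12414, 12029 and 12683 in GGOH mice and 7174, 18095, 11799, 17023 and 20409 in vehicle mice. Its lowest values were in rosuvastatin mice 3 and 5 and rosuvastatin+GGOH mouse 3, its highest in vehicle mouse 5, and the groups overlapped. The means were 8916 ± 2634 TPM in rosuvastatin+GGOH mice, 9838 ± 4706 in rosuvastatin mice, 12116 ± 2833 in GGOH mice and 14900 ± 5347 in vehicle mice (SD, n = 5 each). Mup21, its closest relative, stood at 167, 126, 104, 209.9 and 83.9 TPM in rosuvastatin+GGOH mice, 239, 319, 152, 210.4 and 73.0 in rosuvastatin mice, 213, 163, 237, 229 and 379 in GGOH mice and 135, 254, 199.7, 354 and 461 in vehicle mice. The highest value was again in vehicle mouse 5 and the lowest in rosuvastatin mouse 5. Mup21 averaged 138 ± 50.7 TPM in rosuvastatin+GGOH mice, 199 ± 92.4 in rosuvastatin mice, 244 ± 80.6 in GGOH mice and 281 ± 129 in vehicle mice. The ratio of Mup21 to Mup3 TPM lay between 0.0113 and 0.0331 in the 20 mice.

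Mup20, which encodes darcin, stood at 6225, 8373, 4727, 12790 and 9038 TPM in rosuvastatin+GGOH mice, 9837, 14702, 20647, 10391 and 7081 in rosuvastatin mice, 16726, 12532, 9614, 19380 and 27456 in GGOH mice and 8146, 15604, 9337, 19150 and 13527 in vehicle mice. Its highest value was in GGOH mouse 5 and its lowest in rosuvastatin+GGOH mouse 3, a different order of mice from Mup3. The means were 8230 ± 3072 TPM in rosuvastatin+GGOH mice, 12531 ± 5294 in rosuvastatin mice, 17142 ± 6882 in GGOH mice and 13153 ± 4521 in vehicle mice (SD, n = 5 each). The ratio of Mup20 to Mup3 TPM ran from 0.521 in rosuvastatin+GGOH mouse 1 to 4.49 in rosuvastatin mouse 3, the mouse with the lowest Mup3.

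Among the central genes Mup7 varied most. It stood at 19727, 3112, 1264, 6488 and 196 TPM in rosuvastatin+GGOH mice, 4101, 19202, 5100, 11712 and 69.9 in rosuvastatin mice, 6691, 442, 4026, 553 and 19488 in GGOH mice and 461, 11510, 1225, 11759 and 36094 in vehicle mice. Each group held mice more than 10-fold apart, and the highest value, in vehicle mouse 5, was 516 times the lowest, in rosuvastatin mouse 5. Mup11, the central gene with the highest median, stood at 13304, 4621, 3214, 9414 and 3261 TPM in rosuvastatin+GGOH mice, 7864, 15347, 11116, 10624 and 832 in rosuvastatin mice, 16304, 2924, 6914, 3586 and 14700 in GGOH mice and 3679, 14818, 5120, 15159 and 18270 in vehicle mice. The same 2 mice were the extremes, 22.0-fold apart. Mup9 spanned 115-fold, Mup1 92.6-fold and Mup17 19.2-fold over the 20 mice, while Mup2 spanned 6.28-fold.

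The sum over the 9 genes stood at 56416, 27472, 15738, 43092 and 20890 TPM in rosuvastatin+GGOH mice, 34572, 69930, 46106, 51474 and 13923 in rosuvastatin mice, 61286, 24608, 35042, 36790 and 80302 in GGOH mice and 20336, 66717, 29437, 69259 and 97196 in vehicle mice. The groups overlapped, and the lowest and highest mice were 6.98-fold apart. Its means were 32722 ± 16770 TPM in rosuvastatin+GGOH mice, 43201 ± 20754 in rosuvastatin mice, 47606 ± 22693 in GGOH mice and 56589 ± 31478 in vehicle mice (SD, n = 5 each).

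**Figure D2:**
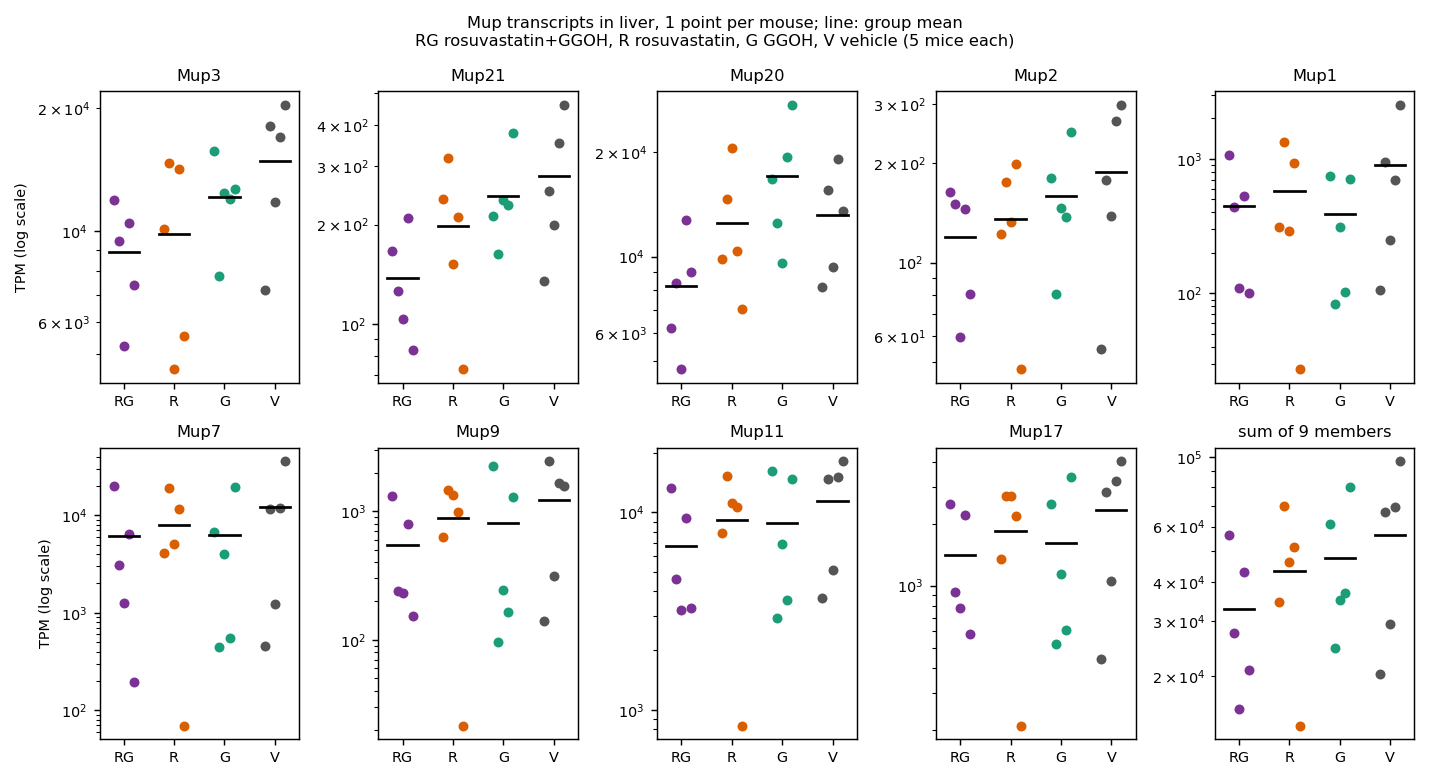
TPM of each member and of their sum (vertical axes, logarithmic) in the 4 groups (horizontal axes; RG rosuvastatin+GGOH, R rosuvastatin, G GGOH, V vehicle); each point is a mouse and each line the group mean. The groups overlapped for every gene, and the Mup7 values in vehicle mice ran from 461 to 36094 TPM.

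The combination was compared with vehicle to ask what both compounds together did. All 9 genes had a negative fitted difference, with a median log2 fold change of -1.07, against a median of 0.0058 over all genes tested. Rows of the 9 genes share reads and come from the same mice. Their signs are therefore not separate observations, here or in the other comparisons. By edgeR's quasi-likelihood test 0 of the 9 passed an adjusted p of 0.05, and 0% of the 12789 genes tested did. DESeq2 and limma also called 0 of the 9 here and in the other 5 comparisons. In edgeR's quasi-likelihood test, Mup21 differed by -1.32 ± 0.48 (SE, 95% interval -2.32 to -0.32), with an unadjusted p of 0.0123 and an edgeR adjusted p of 0.818. Mup20 differed by -0.96 ± 0.41 (-1.82 to -0.11) with an edgeR unadjusted p of 0.0286, and Mup3 by -1.01 ± 0.47 (-1.99 to -0.042) with one of 0.0417, both adjusted to 0.818. An unadjusted p under 0.05 was seen for these 3 of the 9 genes and for 5.50% of all genes. Without vehicle mouse 5 the count was 0 of 9, and likewise without rosuvastatin+GGOH mice 2 and 3. It was 1 without vehicle mouse 2 or 4 or rosuvastatin+GGOH mouse 3 or 5, and 1 by limma. Without vehicle mouse 1 it was 4, when 17.1% of all genes had such a p. For the other settings that share is not given here, so their counts cannot be set against it. Mup3, Mup21 and Mup20 have the largest share of 31-base words of their own. The differences of the central genes lay between -1.49 (Mup9) and -0.96 (Mup2), with wider intervals. The sum of the 9 genes differed by -1.10 ± 0.58 (95% interval -2.30 to 0.11, edgeR adjusted p = 0.817). The interval includes 0 and also a fall of more than 4-fold. Without vehicle mouse 5, the highest mouse, the difference of the sum was -0.67, without rosuvastatin+GGOH mice 2 and 3 it was -0.77, and without these and vehicle mouse 1 it was -1.03. The sum over all 49 Mup rows differed by -0.85 ± 0.52.

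Rosuvastatin alone was compared with vehicle to ask what the statin did by itself. All 9 differences were again negative, with a median of -0.82 against -0.017 over all genes. By edgeR 0 of 9 genes passed, with 0% of all genes called. None had an unadjusted p under 0.05, against 3.69% of all genes. Without vehicle mouse 1, 3 of 9 and 13.6% of all genes had one, without rosuvastatin mouse 2 it was 2 of 9, and by DESeq2 1 of 9. The share of all genes is not given without rosuvastatin mouse 2 or by DESeq2, so those counts cannot be set against it. The lowest p belonged to Mup3 (-0.89 ± 0.47, 95% interval -1.86 to 0.084, unadjusted p = 0.0713, adjusted p = 0.973). The sum differed by -0.77 ± 0.58 (-1.97 to 0.43, adjusted p = 0.972 by edgeR). It was -0.34 without vehicle mouse 5, and -0.35 by limma on log2(TPM + 1). This comparison shares its vehicle mice with the one before and the one after.

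GGOH alone was compared with vehicle in the same way. Mup20 had a positive difference (0.16 ± 0.41, -0.69 to 1.01), and the other 8 genes had negative ones, with a median of -0.64 over the 9 against -0.017 over all genes. By edgeR 0 of 9 genes passed and 0% of all genes were called; 0 of 9 had an unadjusted p under 0.05, against 2.86% of all genes. The largest difference was that of Mup1 (-1.62 ± 1.01, -3.72 to 0.48, adjusted p = 1), which ran from -2.06 to -0.55 with 1 library left out, -0.55 being without vehicle mouse 5. The sum differed by -0.54 ± 0.57 (-1.73 to 0.66, adjusted p = 1). It was -0.14 without vehicle mouse 5 and -0.16 by limma on log2(TPM + 1).

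The combination was set against rosuvastatin alone to ask whether adding GGOH changed the statin's effect. All 9 differences were negative but small, with a median of -0.31 against 0.010 over all genes. By edgeR 0 of 9 genes passed and 0% of all genes were called; 0 of 9 had an unadjusted p under 0.05, against 1.69% of all genes. The sum differed by -0.33 ± 0.57 (-1.52 to 0.86, adjusted p = 1), by -0.014 without rosuvastatin+GGOH mice 2 and 3, and by -0.013 without these and vehicle mouse 1.

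Against GGOH alone, the combination showed its clearest difference in Mup20. The log2 fold change was -1.12 ± 0.41 (95% interval -1.98 to -0.27), with 4727 to 12790 TPM in rosuvastatin+GGOH mice and 9614 to 27456 TPM in GGOH mice. The ranges overlapped, and the unadjusted p was 0.0126, adjusted to 0.348. By edgeR 0 of 9 genes passed and 0% of all genes were called. Over the 9 genes the median difference was -0.44, against 0.0095 over all genes. Mup20 was the only 1 of the 9 with an unadjusted p under 0.05, while 14.0% of all genes had one. That share was 5.60% without rosuvastatin+GGOH mouse 3, 3.29% without rosuvastatin+GGOH mice 2 and 3 and vehicle mouse 1, and 2.23% without the 2 rosuvastatin+GGOH mice alone. In this last setting Mup20 differed by -0.93 with an unadjusted p of 0.0684. Mup21 differed by -0.85 ± 0.48, Mup3 by -0.48 ± 0.46, and Mup1 (0.26 ± 0.99) and Mup7 (0.055 ± 1.29) had positive differences. The sum differed by -0.56 ± 0.57 (-1.76 to 0.64, adjusted p = 0.614), and by -0.24 without rosuvastatin+GGOH mice 2 and 3, with or without vehicle mouse 1.

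The interaction is the difference that rosuvastatin made with GGOH minus the one it made without. Its median over the 9 genes was 0.37, against 0.018 over all genes. It was positive for 7 genes and negative for Mup20 (-0.68 ± 0.58) and Mup21 (-0.038 ± 0.67). By edgeR 0 of 9 genes passed and 0% of all genes were called; 0 of 9 had an unadjusted p under 0.05, against 2.89% of all genes. For the sum it was 0.21 ± 0.81 (-1.48 to 1.89, adjusted p = 1), an interval too wide to tell an added fall from an added rise. It was 0.52 without rosuvastatin+GGOH mice 2 and 3, and 0.77 without these and vehicle mouse 1.

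**Figure D3:**
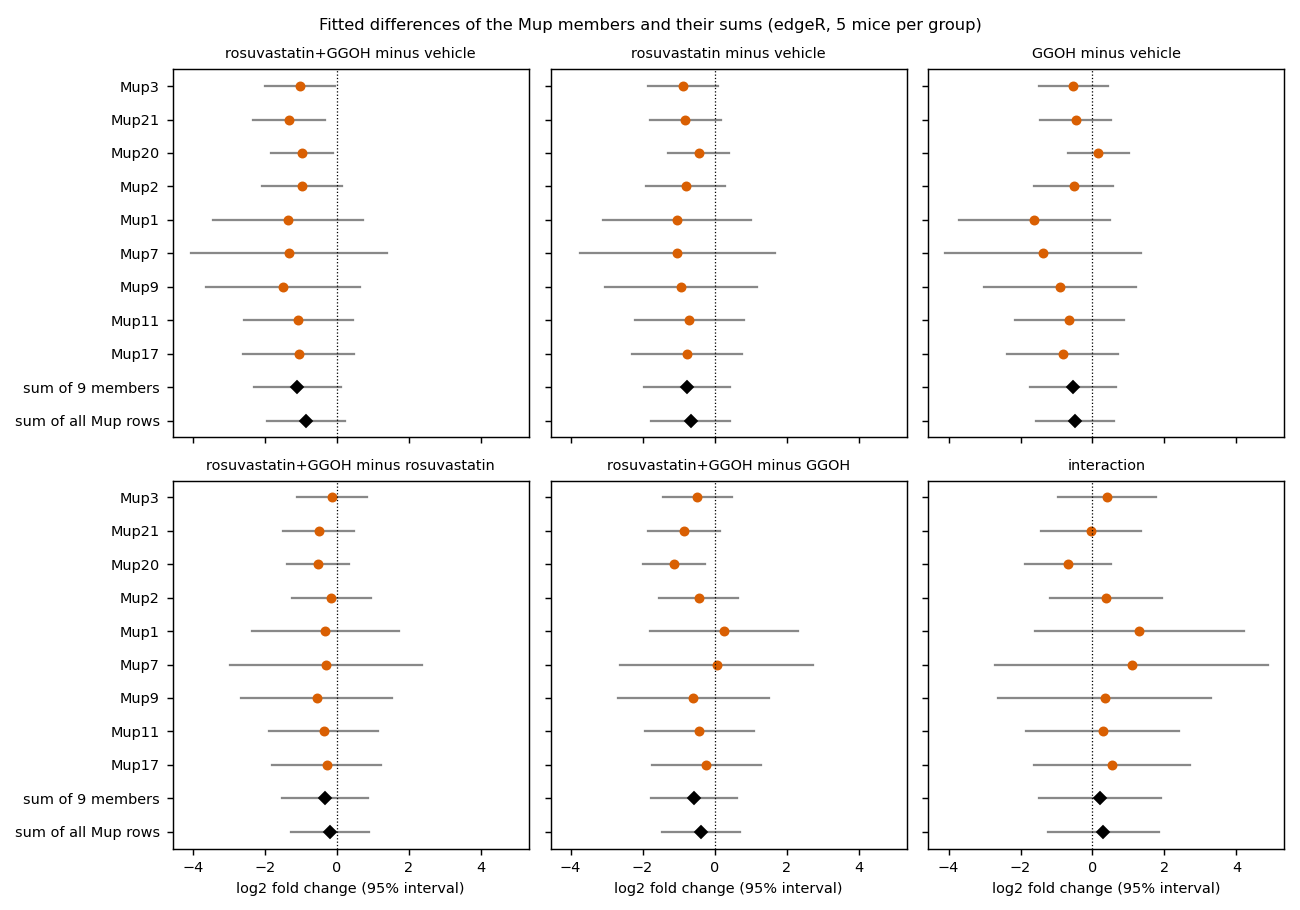
Fitted log2 fold changes (horizontal axes) with 95% intervals (lines) for the 9 members (circles) and for the 2 sums (diamonds) in the 6 comparisons, from 5 mice per group. In the combination against vehicle all 9 points lie below 0, and the intervals of Mup3, Mup21 and Mup20 end below 0 before adjustment over all genes.

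Mice of one group differed widely in most of these genes. The within-group SD of log2 CPM was 2.93 for Mup7, larger than that of 99.9% of the genes tested, 2.19 for Mup9 and 2.02 for Mup1. It was 1.50 for Mup17, 1.47 for Mup11 and 1.04 for Mup2. The divergent genes varied less, with 0.889 for Mup21, 0.853 for Mup3 and 0.721 for Mup20, and the median over all genes was 0.392. The sum had an SD of 1.07. The share of a gene's variance that lay between the 4 groups was 29.0% for Mup20, 23.4% for Mup21 and 18.7% for Mup3, and 2.58% for Mup7, against a median of 15.6% over all genes. The 6 central genes, in which 29.8% or less of the 31-base words were their own, all had a larger SD than the 3 divergent genes. This did not hold for every Mup row. Outside the 9, Mup22 (0% own words), Mup10 (16.8%) and Mup18 (6.89%) had SDs of 0.795, 0.759 and 0.823, below those of Mup3 and Mup21. Mup19 and Mup15, both with 0% own words, had SDs of 1.66 and 1.64. The part of read assignment in the spread of the 6 central genes was not tested. Within the sum of the 9, the 6 central genes made up 8.68% of TPM in rosuvastatin mouse 5 and 67.5% in rosuvastatin+GGOH mouse 1.

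The members moved together from mouse to mouse. Pairs of central genes had a Pearson r of log2 CPM between 0.867 and 0.982 over the 20 mice. These points share reads as well as libraries, so the correlations are given as a description. Mup3 and Mup21, whose sequence is mostly their own, had r = 0.901 with each other and between 0.732 and 0.920 with the central genes. Mup20 followed the others less closely, with r between 0.601 and 0.791 with the central genes 0.671 with Mup3 and 0.804 with Mup21. Outside the 9, Mup22 (r = 0.939), Mup19 (0.934) and Mup10 (0.850) followed the sum, while Mup18 did not (r = -0.0316). Own 31-base words made up 0% in Mup22 and Mup19, 16.8% in Mup10 and 6.89% in Mup18. The values of these rows are therefore uncertain as to the copy. Of the 40 other Mup rows, 17 had a median under 1 TPM. The remaining rows ranged up to Mup19 with a median of 20252 TPM and Mup22 with 51538 TPM.

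**Figure D4:**
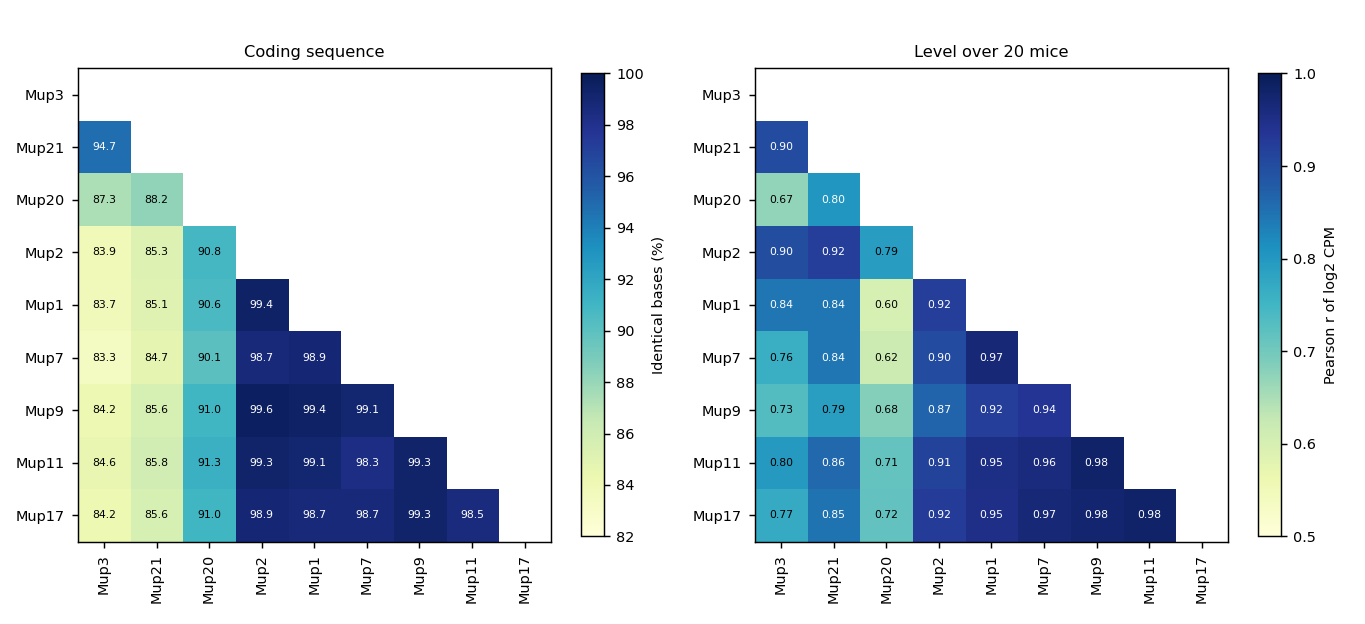
Left, percent of identical coding bases for each pair of members; right, Pearson r of log2 CPM over the 20 mice for the same pairs. The 6 central genes form a block with identities of 98.3 to 99.6% and r of 0.867 to 0.982, and Mup20 has the lowest r of the panel, 0.601 with Mup1.

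Genes with known male-biased expression in liver were examined because Mup transcription shares that bias. In 57 relations with the log2 CPM of the 9-gene sum over the 20 mice, 16 passed an adjusted p of 0.05, 7 positive and 9 negative. Over the 10470 genes searched (mean log2 CPM of at least 1) the quartiles of r were -0.434 and 0.412. The share of these genes that would pass the same test is not given, so the counts by list cannot be set against it. Of 12 male-biased genes, 11 had a positive r and 5 passed. Slco1a1, an organic anion transporter, stood at 48.2, 4.45, 6.74, 22.1 and 18.7 TPM in rosuvastatin+GGOH mice, 25.7, 38.3, 39.7, 36.8 and 0.760 in rosuvastatin mice, 67.1, 4.63, 24.6, 10.7 and 45.3 in GGOH mice and 18.6, 33.7, 17.3, 64.4 and 28.7 in vehicle mice. It was at its lowest in rosuvastatin mouse 5, the mouse with the least Mup, and gave r = 0.813 (permutation p = 1e-05, adjusted p = 0.000285) and rho = 0.854 (p = 2e-05, adjusted p = 0.00114). Without the 2 mice farthest from the median of the sum, vehicle 5 and rosuvastatin 5, r was 0.817, and with group means taken out it was 0.800. Hsd3b5, a male-biased steroid dehydrogenase, was listed at 0 in rosuvastatin+GGOH mouse 3 and rosuvastatin mouse 5 and reached 16.9 TPM in GGOH mouse 1, with r = 0.782 (permutation p = 5e-05, adjusted p = 0.00095) and rho = 0.770 (p = 8e-05, adjusted p = 0.00152). Cyp7b1, which hydroxylates oxysterols, ran from 7.89 TPM in rosuvastatin mouse 5 to 42.4 TPM in rosuvastatin mouse 3 and gave r = 0.810 (permutation p = 1e-05, adjusted p = 0.000285) and rho = 0.768 (p = 8e-05, adjusted p = 0.00152). Without those 2 mice r was 0.765 for Hsd3b5 and 0.758 for Cyp7b1. The smallest p that these permutations can give is 1e-05.

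Of 9 female-biased genes, 8 had a negative r and 3 passed. Cyp2b13, a female-biased cytochrome P450, was highest in rosuvastatin mouse 5 (8.50 TPM) and was listed at 0 in GGOH mouse 1, and gave r = -0.649 (permutation p = 0.00225, adjusted p = 0.0128) and rho = -0.595 (p = 0.00625, adjusted p = 0.0297). Fmo2, a flavin monooxygenase, gave r = -0.723 (permutation p = 0.00024, adjusted p = 0.00228) and rho = -0.716 (p = 0.00069, adjusted p = 0.00655), and Cyp2a4, another P450, stood at r = -0.608, rho = -0.586, adjusted permutation p = 0.0176 and 0.0316. Without vehicle mouse 5 and rosuvastatin mouse 5 the r of Cyp2b13 was -0.677 and that of Fmo2 -0.601. Cyp2b13 and Cyp2a4 have close paralogs, as have Serpina1e, Cyp4a12a and Cyp4a12b named further on, so their reads can be split between copies.

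Among factors that act on Mup or male-biased genes, 9 of 10 had a negative r and 4 passed. Cebpb, a bZIP factor of hepatocytes, gave r = -0.737 (permutation p = 0.0002, adjusted p = 0.00228) and rho = -0.753 (p = 0.00018, adjusted p = 0.00256) and stood at 2.64 TPM in vehicle mouse 5, the mouse with the most Mup. The liver factor Hnf4a stood at r = -0.616, rho = -0.612, adjusted permutation p = 0.0176 and 0.0258. Cebpa, a relative of Cebpb, stood at r = -0.597, rho = -0.537, adjusted permutation p = 0.0214 and 0.0559, so its rank correlation did not pass. The same was true of Zhx2, a regulator of Mup and other liver genes (r = -0.552, rho = -0.475, adjusted permutation p = 0.0420 and 0.107). In the growth hormone axis, the signal transducers Stat5a (r = -0.673, rho = -0.687, adjusted permutation p = 0.00983 and 0.00804) and Stat5b (r = -0.656, rho = -0.617, adjusted permutation p = 0.0122 and 0.0258) were negative. The receptor gene Ghr (r = 0.745, rho = 0.737, adjusted permutation p = 0.00228 and 0.00399) and the growth hormone target Igf1 (r = 0.592, rho = 0.589, adjusted permutation p = 0.0214 and 0.0316) were positive, but both depended on the scale. Without vehicle mouse 5 and rosuvastatin mouse 5, all 16 relations kept their sign, and the weakest r was 0.481 (Igf1). Vehicle mouse 1, with a low Mup sum (log2 CPM 13.4), had the highest TPM of 6 negatively related genes. These were Hnf4a (116), Cebpa (103), Cebpb (18.2), Zhx2 (3.17), Stat5a (5.19) and Stat5b (8.98). Cyp2b13, Fmo2 and Cyp2a4 were highest in other mice. The relations were not computed without vehicle mouse 1.

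On the log2(TPM + 1) scale, a comparison chosen after the data were seen, 4 positive and 22 negative of the 57 relations passed. The negative ones were 9 of the 10 factors, 5 of 9 female-biased genes, 5 of 12 genes of the growth hormone axis and 3 marker lists. The median r on this scale was -0.602 for the factors, -0.624 for the female-biased genes and -0.463 for the growth hormone axis. Over all genes searched it was -0.504, with quartiles of -0.618 and -0.259. The medians of the factors and the female-biased genes thus lay near the lower quartile of all genes. Of the 16 relations that passed in CPM, 13 kept their sign and passed, 4 positive and 9 negative. The positive ones were Slco1a1 (r = 0.799), Hsd3b5 (0.724), Cyp7b1 (0.605) and Serpina1e (0.587), a male-biased serpin whose rank correlation had not passed on the CPM scale (adjusted permutation p = 0.0531). For Ghr r was -0.262 there, for Igf1 0.0436 and for Elovl3, a fatty acid elongase, 0.469. The median r over the 10470 genes searched was -0.0677 on the log2 CPM scale and -0.504 on the TPM scale. The 9 negative relations therefore stood nearer to the bulk of genes in TPM than in CPM.

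**Figure D5:**
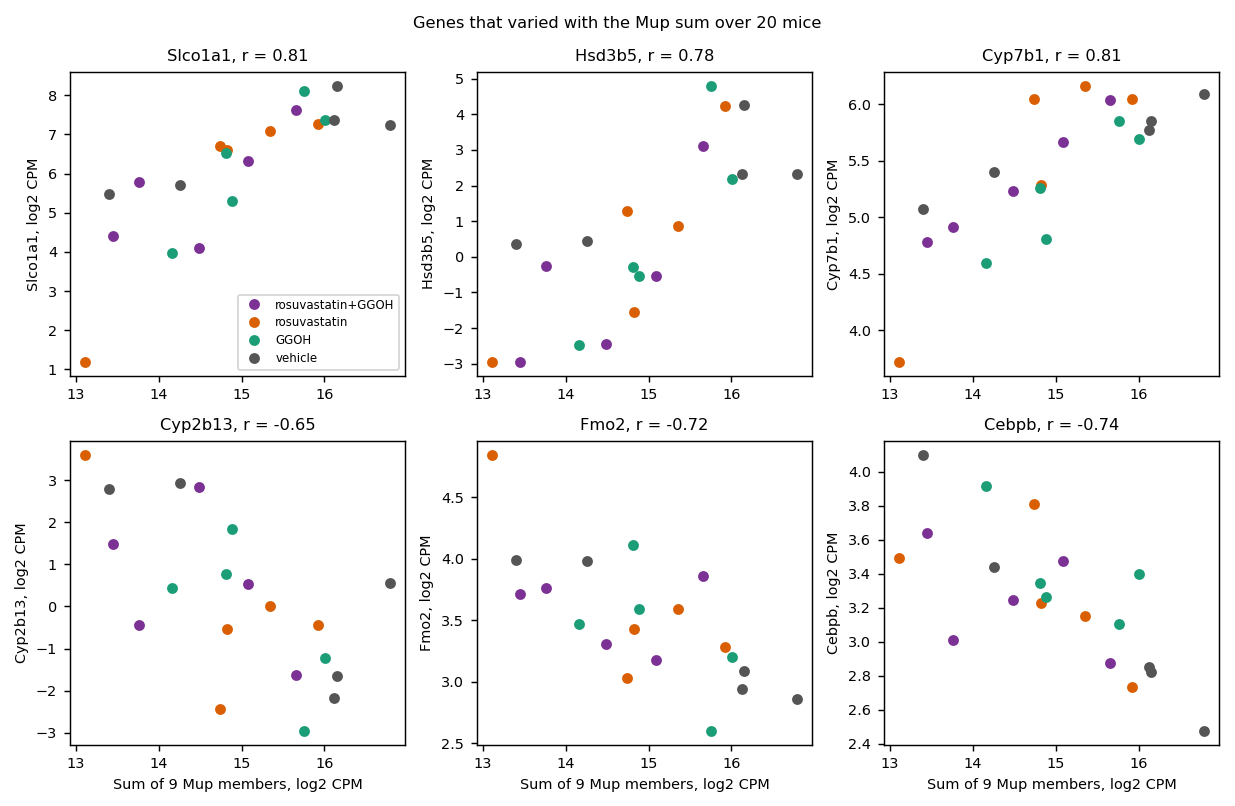
Log2 CPM of 6 genes (vertical axes) against log2 CPM of the sum of the 9 Mup members (horizontal axes), 1 point per mouse, coloured by group. Slco1a1, Hsd3b5 and Cyp7b1 are higher and Cyp2b13, Fmo2 and Cebpb lower in mice with a higher sum, and mice of all 4 groups lie along each trend.

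Marker genes of the cell types that liver tissue holds gave no correlation with the sum that passed an adjusted p of 0.05 on the log2 CPM scale (0 of 12 lists). The mean log2 CPM of the hepatocyte list had r = 0.142 with it, the pericentral list 0.207 and the periportal list 0.0991. The 7 hepatocyte markers summed to 23772 to 55500 TPM in rosuvastatin+GGOH mice, 29370 to 53982 in rosuvastatin mice, 32795 to 42552 in GGOH mice and 24842 to 67932 in vehicle mice. Erythroid markers came nearest to passing among the 12 lists (r = 0.536, permutation p = 0.0161, adjusted p = 0.0538). On the TPM scale 3 of the 12 lists passed, all with a negative r, that of sinusoidal endothelium being -0.770. The part of these lists in the Mup values was not tested. The mitochondrial share of counts had r = -0.299 (adjusted p = 0.336) and the log2 total count r = -0.0201.

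Across all 10470 genes with a mean log2 CPM of at least 1, those most like the 9-gene sum over the 20 mice were Sult2a8 (r = 0.882), a sulfotransferase, Rcl1 (0.867), Nudt7 (0.865), a peroxisomal hydrolase of coenzyme A, Them4 (0.845), Cfd (0.842), which encodes adipsin, and Hsd17b10 (0.839). The least alike were Tgm2 (-0.837), a transglutaminase, Robo1 (-0.835), Pfkl (-0.834), the liver phosphofructokinase, and Rps6kc1 (-0.823). On the TPM scale r was 0.794 for Sult2a8, 0.741 for Cfd, 0.652 for Nudt7, 0.559 for Hsd17b10, 0.503 for Rcl1 and 0.425 for Them4. For Robo1 it was -0.860, for Tgm2 -0.778, for Pfkl -0.725 and for Rps6kc1 -0.631. These genes were picked for their r, so no p is given; the quartiles over all genes were -0.434 and 0.412. Sult2a8 stood at 1090, 726, 563, 874 and 707 TPM in rosuvastatin+GGOH mice, 1031, 1016, 609, 1245 and 289 in rosuvastatin mice, 1577, 764, 1314, 1275 and 1099 in GGOH mice and 556, 1460, 1114, 1490 and 1516 in vehicle mice. Its lowest value was in rosuvastatin mouse 5, and its groups overlapped. In TPM, Tgm2, Robo1 and Pfkl were highest in vehicle mouse 1 and Rps6kc1 in rosuvastatin mouse 5.

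The genes named for the growth hormone axis and for other lipocalins were also compared between groups. No member of these lists, of the male-biased or of the female-biased list passed in any of the 6 comparisons by edgeR. Of the 12 genes of the growth hormone and STAT5 axis, 3 had a positive and 1 a negative difference at an unadjusted p under 0.05 between the combination and vehicle, a comparison in which 5.50% of all genes had one. The largest was that of Cish, a STAT5-induced feedback inhibitor, at 1.99 ± 0.65 (SE, unadjusted p = 0.00589, edgeR adjusted p = 0.818). Cish stood at 0.900, 1.13, 4.72, 0.401 and 1.84 TPM in rosuvastatin+GGOH mice, 0.886, 1.30, 1.78, 1.49 and 3.06 in rosuvastatin mice, 0.481, 0.665, 0.511, 1.07 and 4.77 in GGOH mice and 0.523, 0.312, 1.74, 0.321 and 0.558 in vehicle mice, with the 2 highest values in GGOH mouse 5 and rosuvastatin+GGOH mouse 3 and overlapping groups. Without rosuvastatin+GGOH mouse 3 it differed by 1.35 ± 0.61, with an edgeR unadjusted p of 0.0384. Of the 12 male-biased genes, 9 had a positive difference between rosuvastatin and vehicle, with a median of 0.39 against -0.017 over all genes. All 9 Mup genes, whose rows share reads, had a negative one. By edgeR 2 of the 12 male-biased genes had an unadjusted p under 0.05, against 3.69% of all genes. Cyp4a12b (2.86 ± 0.90) and Cyp4a12a (1.79 ± 0.57) led these with unadjusted p-values of 0.00451 and 0.00480 and an edgeR adjusted p of 0.973 each. Cyp4a12a stood at 99.4 TPM in rosuvastatin mouse 3 and at 11.7 to 29.1 in the other rosuvastatin mice. Without that mouse the difference was 1.59 ± 0.80 for Cyp4a12b and 1.19 ± 0.53 for Cyp4a12a, with edgeR unadjusted p-values of 0.0605 and 0.0357. Of 8 other secreted lipocalins tested, 0 had a positive difference between the combination and vehicle, with a median of -0.49 against 0.0058 over all genes. By edgeR 3 of the 8, all negative, had an unadjusted p under 0.05, against 5.50% of all genes. The acute-phase carriers Orm1 (-1.21 ± 0.41) and Orm2 (-1.58 ± 0.56) had unadjusted p-values of 0.00720 and 0.00992 and an edgeR adjusted p of 0.818 each. Orm1 stood at 4642 TPM in vehicle mouse 2 and at 1122 to 1907 in the other vehicle mice. Without vehicle mouse 2 the difference was -0.58 ± 0.33 for Orm1 and -0.78 ± 0.49 for Orm2, with edgeR unadjusted p-values of 0.0980 and 0.123. Of 14 abundant secreted hepatocyte proteins, 2 had a positive difference between the combination and vehicle, with a median of -0.25 against 0.0058 over all genes.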

How the data were processed

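Liver RNA was extracted with an RNeasy kit, selected for poly(A), made into TruSeq libraries and sequenced in pairs on a NovaSeq instrument, per the labels' protocols. The submitters' processing notes name bcl2fastq 2.19, kallisto 0.44.0, DESeq2 without a version and the builds GRCm38 and mm10. The authors deposited kallisto estimated counts per gene and TPM values per gene, the second scaled for length and depth. The annotation is not given in the sources used here. The 1 unnamed row, with 0.00801 to 0.0157% of counts, was left out. The labels number the livers of a group without saying that they came from separate animals, so p-values measure only the spread between these samples.

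Estimated counts were rounded to whole numbers and tested with edgeR 4.0.16 in R 4.3.3. The settings were the quasi-likelihood F test, TMM, the default filter by group and 1 model of 4 group means. Benjamini-Hochberg adjustment ran over all 12789 genes tested, with a threshold of 0.05. The common biological coefficient of variation was 0.300. The value after ± of a fold change is its SE. For the sums, the member rows were replaced by 1 row with their summed count. The scripts were tested on simulated data. Alternatives were RLE size factors, DESeq2 1.42.0, other filters, limma 3.58.1 on log2(TPM + 1) and log2(TPM + 0.1), a replicate block, Mup rows left out of the scaling, only the groups compared, all Mup rows summed, mitochondrial transcripts left out of shares, and libraries left out; leaving out rosuvastatin+GGOH mice 2 and 3 alone was chosen after the data were seen. Correlations used 100000 two-sided permutations and 57 relations per family, adjusted together. Same-numbered mice were not seen to deviate together: their deviations from group means had r between -0.465 and 0.507 over 30 pairs (median 0.056). The median was 0.022 over 120 other pairs, so the numbers were not taken as pairs. Coding sequences were aligned with mafft 7.526. Members and gene lists were chosen with earlier results of these data known. All members are named. Of other genes, the 6 with the highest and the 4 with the lowest r with the sum are named, and up to 4 of a list by smallest p. Serpina1e, Cebpb, Hsd3b5 and the other genes named for their correlation come from the 57 relations and were picked after their values were seen.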

Additional observations from a re-analysis of the deposited data

How the results depend on the processing

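None of the 9 genes passed an adjusted p of 0.05 under any of the 31 alternative settings, and the lowest adjusted p of a member was 0.211. The number of all genes called, 0 in each comparison, became 2 for rosuvastatin against vehicle, 5 for the combination against vehicle and 1 for the combination against rosuvastatin with DESeq2. It became 1 in the last 2 comparisons without a low-count filter and by limma on log2(TPM + 1), and 1 for the combination against vehicle on log2(TPM + 0.1). With 1 library left out it was 0 to 1 in these 2 comparisons and 0 in the others. The log2 fold change of the sum with 1 library left out ran -1.47 to -0.67 for the combination against vehicle, -1.08 to -0.34 for rosuvastatin against vehicle, -0.79 to -0.14 for GGOH against vehicle, -0.73 to 0.014 for the combination against rosuvastatin, -0.94 to -0.30 for the combination against GGOH and -0.21 to 0.54 for the interaction. The interaction of the sum was -0.22 by limma at both pseudocounts. Of 1665 differences of single members under other settings, 57 had the opposite sign, and 0 of these in the combination against vehicle. The cause of these changes was not tested.

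Members whose sign turned with 1 library left out are given with their lowest and highest values. In rosuvastatin against vehicle these were Mup1 (-1.74 to 0.050) and Mup7 (-1.76 to 0.074). In GGOH against vehicle this was Mup20 (-0.069 to 0.39). In the combination against rosuvastatin these were Mup1 (-1.03 to 0.38), Mup2 (-0.40 to 0.051), Mup3 (-0.35 to 0.13), Mup7 (-1.61 to 0.43), Mup11 (-0.90 to 0.0052) and Mup17 (-0.72 to 0.00075). In the combination against GGOH these were Mup1 (-0.43 to 0.70), Mup7 (-1.24 to 1.09), Mup9 (-1.33 to 0.36) and Mup17 (-0.64 to 0.19). In the interaction these were Mup7 (-0.25 to 2.13), Mup9 (-0.44 to 1.29), Mup11 (-0.27 to 0.68) and Mup21 (-0.43 to 0.28). Without vehicle mouse 1 and rosuvastatin+GGOH mice 2 and 3, the sign turned for Mup20 in GGOH against vehicle (-0.041), for Mup1 (0.037), Mup3 (0.043), Mup7 (0.25), Mup11 (0.027) and Mup17 (0.080) in the combination against rosuvastatin, for Mup17 (0.13) in the combination against GGOH and for Mup21 (0.37) in the interaction. Without rosuvastatin+GGOH mice 2 and 3 alone, it turned for Mup1 (0.035), Mup3 (0.047), Mup7 (0.24), Mup11 (0.024) and Mup17 (0.075) in the combination against rosuvastatin, for Mup17 (0.14) in the combination against GGOH and for Mup21 (0.14) in the interaction. By limma on both TPM scales it turned for Mup7 in the combination against GGOH (-0.076 at a pseudocount of 1 and -0.076 at 0.1) and for Mup2 in the interaction (-0.012 at a pseudocount of 1 and -0.013 at 0.1). The correlation of Ghr with the sum turned to -0.262 on the TPM scale.

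With the replicate number as a block, the sum differed by -1.07 in the combination against vehicle, -0.64 in rosuvastatin against vehicle, -0.43 in GGOH against vehicle, -0.43 in the combination against rosuvastatin, -0.64 in the combination against GGOH and 0.0064 in the interaction, and 0 members passed. No pairing by number was seen: 13 of 30 same-numbered pairs and 47 of 120 other pairs had r over 0.1. Of the 20 mice, 5 correlated best with their own number. Depth did not limit detection, since each member was found in every library.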
